A study of Mus musculus with 36 samples.

Results

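Transcripts of 10 genes of antigen presentation through the major histocompatibility complex (MHC) were compared across 3 kinds of cells sorted from mouse skeletal muscle. The genes were taken by name, whatever their level, and are H2-Aa, H2-Ab1, H2-Eb1, Cd74 and Ciita of the class II pathway and H2-K1, H2-D1, B2m, Tap1 and Tap2 of the class I pathway. All 10 were found by their Ensembl identifiers among the 52636 genes of the count table. The mice carried both an S100β-GFP and an NG2-dsRed transgene, in which the promoter of S100b drives GFP and that of Cspg4, which encodes the proteoglycan NG2, drives dsRed. Diaphragm, pectoralis, forelimb and hindlimb muscles of these mice, untreated and without any other allele named, were digested with collagenase and sorted by fluorescence. The mice were at P15-21 by the paper's methods and at P15-22 by its results. Cells with both colours were perisynaptic Schwann cells (PSCs, 9 libraries), cells with GFP alone were S100β-GFP+ Schwann cells (8 libraries), and cells with dsRed alone were NG2-dsRed+ cells (10 libraries). Each library held RNA from 1 mouse. Both transgenes report a promoter and not an identity, and the GFP line came on a mixed B6;D2 background, whereas the reads were aligned to the C57BL/6J genome, in which the MHC genes can differ in sequence.

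Class II molecules show peptides from engulfed protein to CD4 T cells and are made mainly by dendritic cells, macrophages and B cells. Their alpha and beta chains (H2-Aa with H2-Ab1, and H2-Eb1 with an E alpha chain) are held by the invariant chain Cd74 until a peptide is loaded, and Ciita is the coactivator that switches these genes on. Class I molecules show peptides from inside the cell to CD8 T cells on nearly every nucleated cell. They consist of a heavy chain, such as H2-K1 or H2-D1, and the light chain B2m, and they are filled with peptides that the Tap1 and Tap2 transporter carries into the endoplasmic reticulum. Interferon gamma raises both pathways.

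Promoters of MHC genes of both classes are known for a shared block, in which a cyclic AMP response-type X2 box lies upstream of an inverted CCAAT box named Y. RefSeq windows on GRCm38.p6 were available for 6 of the 10 genes (H2-Aa, H2-Eb1, H2-K1, H2-D1, B2m and Tap1), and the 250 bases before each start were searched. The letters TGANG followed after 12 to 24 bases by ATTGG, on either strand, were found in 5 of these 6 windows and in 2.94% of all 27025 windows of the same length. The motif letters were picked from textbook knowledge after the sequences had been looked at, so the share is a description. The stretches are shown because genes of both classes carry this pair, with TGANG and ATTGG in capitals, 5′ to 3′ on the strand of the gene. For H2-D1 only the block itself is given, since RefSeq puts the start of this gene at base 35263094, which is 364 bases inside the longer GENCODE gene whose limits are printed further on.
H2-Aa (chr17:34287847-34287917, minus strand): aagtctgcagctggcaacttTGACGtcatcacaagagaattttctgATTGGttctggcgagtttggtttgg
H2-Eb1 (chr17:34305764-34305832, plus strand): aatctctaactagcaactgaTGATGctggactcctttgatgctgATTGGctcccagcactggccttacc
H2-K1 (chr17:34000348-34000408, minus strand): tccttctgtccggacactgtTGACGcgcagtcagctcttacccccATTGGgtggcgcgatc
H2-D1 (chr17:35262993-35263022, plus strand): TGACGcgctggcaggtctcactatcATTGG
B2m (chr2:122147589-122147658, plus strand): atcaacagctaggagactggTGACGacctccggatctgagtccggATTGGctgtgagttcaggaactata

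Between the pair of capital blocks lay 21 bases in H2-Aa, 19 in H2-Eb1 and 20 in each of H2-K1, H2-D1 and B2m. Alone, CCAAT on either strand was in 6 of the 6 windows against 34.5% of all windows, and TGACG was in 5 of 6 against 17.9%. GAAA followed after 2 bases by GAAA, a form of the interferon-stimulated response element, was in the B2m window only, against 3.04% of all windows. The Tap1 window held CCAAT and TGACG but not the pair at that spacing.

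The libraries held 5221655 to 9592875 counts on genes, and levels are given as CPM, the count of a gene per 1000000 counts of the effective library size, which is the total times a TMM factor (trimmed mean of M values). These factors lay between 1.03 and 1.33 in PSCs, 0.744 and 0.979 in S100β-GFP+ cells and 0.835 and 1.11 in NG2-dsRed+ cells, so CPM values are lower in PSCs and higher in S100β-GFP+ cells than counts per total would be. Before the results, the labels were compared with marker genes. Schwann cell markers summed to 2768 to 3557 CPM in PSCs, 653 to 1981 CPM in S100β-GFP+ cells and 73.4 to 450.1 CPM in NG2-dsRed+ cells. Within that list Sox10, the glial identity factor, was at 506 ± 103 CPM (SD, n = 9) in PSCs but at 20.2 ± 12.0 CPM (n = 8) in S100β-GFP+ cells, which held 18320 to 41850 CPM of fibroblast markers. The 38 leukocyte markers summed to 878 to 7609 CPM in S100β-GFP+ cells, 50.6 to 134 CPM in PSCs and 105 to 152 CPM in NG2-dsRed+ cells. Markers of fibroblasts and leukocytes were thus read in libraries labelled as Schwann cells. S100β-GFP+ libraries 14, 17 and 22 stood apart from the other 5, with leukocyte sums of 1656, 1237 and 878 CPM against 3803 to 7609 CPM and endothelial sums of 1007 to 3404 CPM against 146 to 238 CPM. The fits of the 10 genes were therefore repeated without them. The marker lists, the pathway lists and the levels per kilobase were not, so those rest on all S100β-GFP+ libraries. In such bulk RNA, fewer cells of a type and less RNA per cell cannot be told apart.

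The class II genes were abundant in S100β-GFP+ cells and at 21.4 CPM or less in every PSC library. Cd74, the invariant chain on chromosome 18, ranged from 1420 to 11450 CPM with a median of 7049 CPM in S100β-GFP+ cells, from 0.835 to 21.4 CPM with a median of 5.58 CPM in PSCs, and from 7.88 to 46.8 CPM with a median of 12.7 CPM in NG2-dsRed+ cells. Every S100β-GFP+ library was higher than every library of the other cell types. Relative to S100β-GFP+ cells the fitted level in PSCs was 762-fold lower (95% interval 310 to 1870, log2 fold change -9.57 ± 0.66 SE, edgeR quasi-likelihood test adjusted p = 1.08e-12).

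H2-Aa, the alpha chain of the I-A molecule (chr17:34282744-34287823, minus strand), was at 341 to 2515 CPM with a median of 1297 CPM in S100β-GFP+ cells, 0.104 to 3.50 CPM with a median of 1.56 CPM in PSCs and 1.39 to 6.24 CPM with a median of 2.48 CPM in NG2-dsRed+ cells. H2-Ab1, its beta chain partner (chr17:34257689-34269419, plus strand), was at 364 to 3215, 0.907 to 7.15 and 0.618 to 10.1 CPM in the same order. H2-Eb1, the beta chain of I-E (chr17:34305867-34316674, plus strand), was at 191 to 1972, 0.209 to 2.57 and 0.890 to 5.59 CPM. For each of these chains PSC and NG2-dsRed+ libraries overlapped, and both lay wholly under the S100β-GFP+ libraries. In PSCs relative to S100β-GFP+ cells the log2 fold change was -9.73 ± 0.61 for H2-Aa (edgeR adjusted p = 1.52e-13), -9.16 ± 0.59 for H2-Ab1 (3e-13) and -9.79 ± 0.60 for H2-Eb1 (1.05e-13).

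Ciita, the coactivator (chr16:10480059-10528418, plus strand), was read at 12.8 to 74.9 CPM with a median of 40.7 CPM in S100β-GFP+ cells. Over the 9 PSC libraries it had 21 counts in all, from 0 to 0.737 CPM, and over the 10 NG2-dsRed+ libraries 30 counts, of which 17 were in library 13. It passed the filter on low counts through the S100β-GFP+ libraries, since 0 PSC libraries and 1 NG2-dsRed+ library reached the filter level of 1.44 counts per 1000000 total counts, so a difference for this gene was built into its being tested. The log2 fold change in PSCs relative to S100β-GFP+ cells was -7.21 ± 0.66 (edgeR adjusted p = 2.55e-10). Ciita shares 329 exon bases with Dexi on the opposite strand, and since strand was not stated to be used in counting, reads there cannot be told apart.

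**Figure D1:**
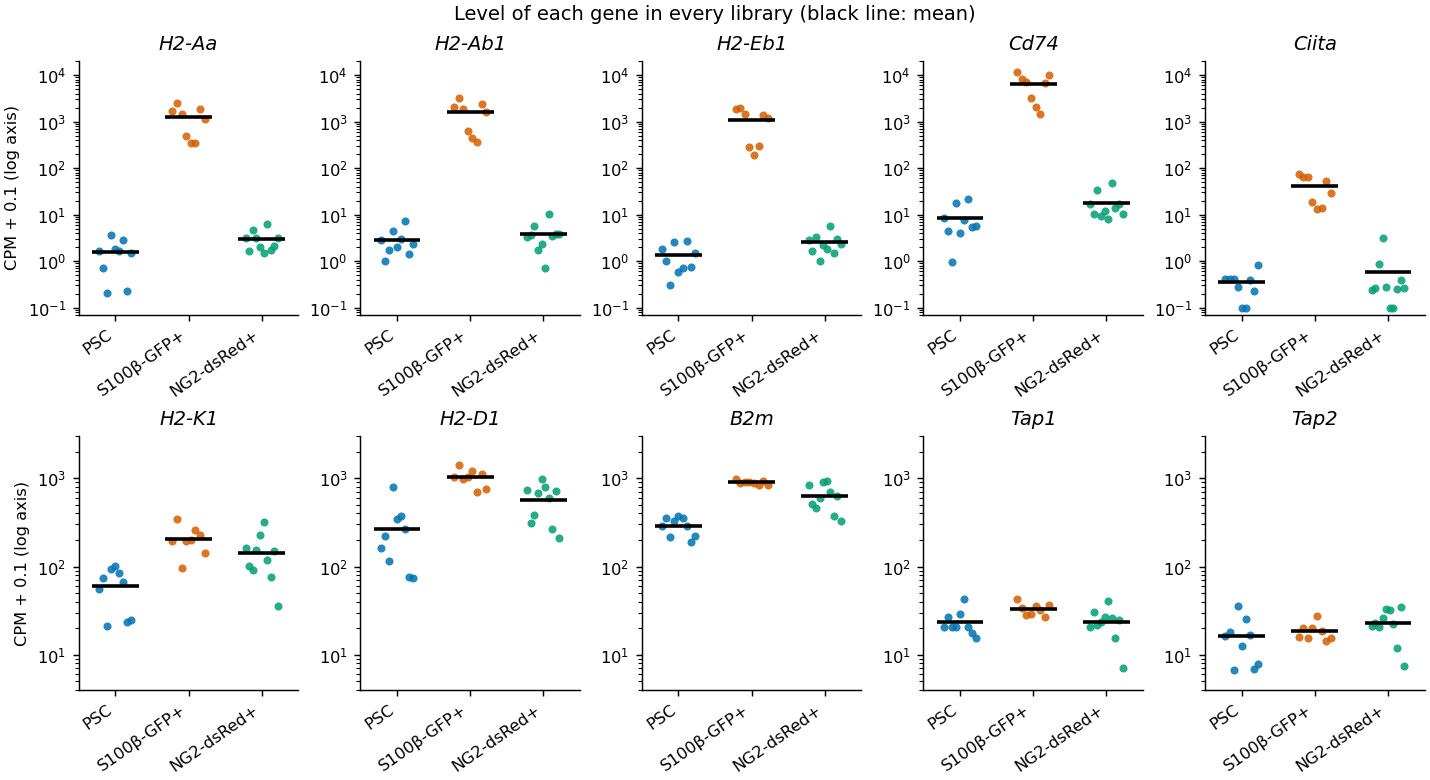
Level of the 10 genes in each of the 27 libraries, as CPM + 0.1 on a log axis, with class II genes in the upper row and class I genes in the lower row and a black line at the mean of each cell type. The S100β-GFP+ libraries lie above all others for the 5 class II genes, and for B2m all 9 PSC libraries lie under the 8 S100β-GFP+ libraries.

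With Ciita left aside, the 4 other class II genes were lower in PSCs relative to S100β-GFP+ cells with no overlap of libraries, which held for 10.3% of the 15330 genes tested. Of the 9 genes other than Ciita, 7 were called lower and 0 higher in PSCs, where 24.1% of all genes tested were called lower, 22.9% higher and 47.0% in either direction. Without S100β-GFP+ libraries 14, 17 and 22, or with only these 3, the 4 class II genes other than Ciita stayed past the threshold (adjusted p at most 1.31e-09 over all 8 alternatives). The same 4 genes were higher in S100β-GFP+ cells than in NG2-dsRed+ cells, by log2 fold changes of 8.74 ± 0.55 for H2-Aa, 8.70 ± 0.55 for H2-Ab1, 8.77 ± 0.54 for H2-Eb1 and 8.47 ± 0.60 for Cd74 (edgeR adjusted p from 9.84e-13 to 7.19e-12). Ciita, again tested through its filter, had a log2 fold change of 6.43 ± 0.61 (edgeR adjusted p = 1.11e-09). Across that comparison 33.3% of genes tested were called, 18.1% as higher and 15.2% as lower, and 7.21% were higher in S100β-GFP+ cells with no overlap.

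Between PSCs and NG2-dsRed+ cells, both with low class II levels, 0 of the 5 class II genes passed the threshold in edgeR, 3 had an unadjusted p under 0.05 and 1 passed by DESeq2, all as lower in PSCs. Cd74 was nearest, at 8.36 ± 6.82 CPM (n = 9) against 17.7 ± 12.8 CPM (n = 10), a log2 fold change of -1.10 ± 0.46 with an adjusted p of 0.0543 in edgeR. H2-Aa (-0.99, adjusted p = 0.0885), H2-Eb1 (-1.02, 0.0804), H2-Ab1 (-0.46, 0.425) and Ciita (-0.78, 0.408) were further from it. The Cd74 call depended on the processing, as it was past the threshold by DESeq2 (-1.05, adjusted p = 0.0341) and by limma-voom with quality weights (-1.83, 0.00762), and when any of PSC libraries 18 and 31, S100β-GFP+ libraries 17 and 22 or NG2-dsRed+ libraries 7, 13 and 21 was left out. Leaving out 1 library at a time moved its log2 fold change between -1.41 and -0.81 (adjusted p from 0.0142 to 0.152).

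Most leukocyte markers were higher where the class II genes were. Of the 38, 11 could be tested without needing the S100β-GFP+ libraries to pass the filter, and 10 of these were lower and 1, Mertk, was higher in PSCs relative to S100β-GFP+ cells, while relative to NG2-dsRed+ cells S100β-GFP+ cells had 8 higher and 2, Mertk and Zbtb46, lower. Ptprc, which encodes the leukocyte surface phosphatase CD45, had 15440 counts over the S100β-GFP+ libraries, 84 over the PSC libraries and 158 over the NG2-dsRed+ libraries. Csf1r, the macrophage growth factor receptor, had 10254, 107 and 177 counts. Itgax, the dendritic cell integrin CD11c, had 2758, 3 and 8 counts, but it passed the filter only with the S100β-GFP+ libraries and is not among the 11. Of the 2 dendritic cell markers among the 11, 2 were lower in PSCs relative to S100β-GFP+ cells. In S100β-GFP+ relative to NG2-dsRed+ cells 0 of these 2 were higher and 1 was lower. Macrophage markers summed to 343 to 2197 CPM in S100β-GFP+ cells and to 40.2 to 93.9 CPM in PSCs, where Mertk gave 5253 counts, against 1185 over the S100β-GFP+ libraries, and the other macrophage markers far fewer, with Fcgr1 at 0. Dendritic cell markers summed to 50.3 to 481 CPM in S100β-GFP+ cells, 2.45 to 16.3 CPM in PSCs and 22.0 to 53.3 CPM in NG2-dsRed+ cells. The B cell markers stayed at 24.5 CPM or less and the T and NK cell markers at 6.09 CPM or less in every library. The part of leukocyte RNA in the class II levels was not tested.

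Within the S100β-GFP+ cells the libraries lowest in leukocyte markers were also the lowest in class II transcripts. Libraries 22, 17 and 14 had 354, 341 and 496 CPM of H2-Aa, and the other 5 had 1150 to 2515 CPM. For Cd74 the 3 libraries had 1420, 2066 and 3246 CPM and the others 6824 to 11450 CPM. The 8 libraries fell into these separate sets, neither of which holds 6 libraries, so a correlation within a set could not be tested and a pooled one is not given. Among PSCs, where both measures are low, Pearson's r between log2(CPM + 1) of H2-Aa and of the marker sum was 0.252 (n = 9, exact permutation p = 0.517, adjusted p = 0.672 over the 6 relations computed, Spearman's rho -0.133, p = 0.744, adjusted p = 0.837), and it was -0.0152 without libraries 18 and 34. Among NG2-dsRed+ cells r was 0.255 (n = 10, permutation p = 0.473, adjusted p = 0.672, rho 0.0788, p = 0.837, adjusted p = 0.837), and 0.662 without libraries 2 and 9. At these levels the sum rests on few genes, as Mertk was at 65.5 ± 15.7 CPM in PSCs, where the median sum was 103 CPM, and Mertk and Zbtb46 were at 47.8 ± 9.98 and 33.5 ± 10.6 CPM in NG2-dsRed+ cells, where it was 122 CPM. Without both genes r was 0.349 in PSCs (exact permutation p = 0.353) and 0.385 in NG2-dsRed+ cells (permutation p = 0.272), an alternative added after seeing the data.

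**Figure D2:**
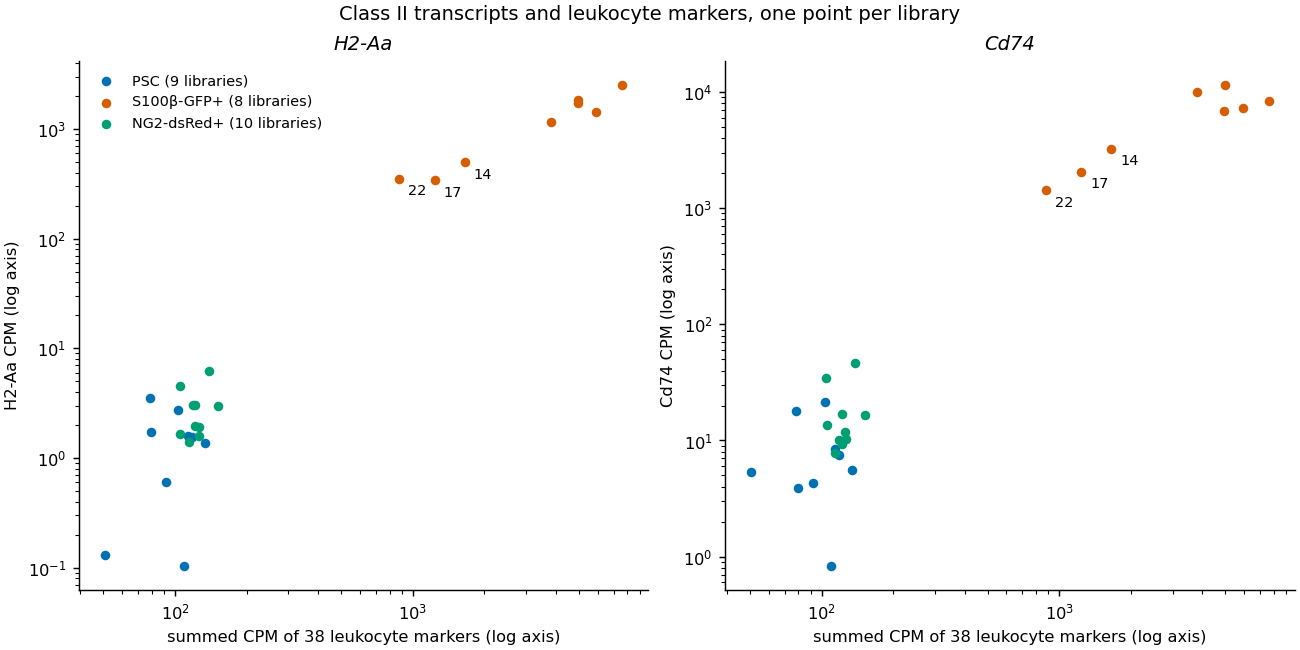
CPM of H2-Aa and of Cd74 against the summed CPM of 38 leukocyte markers, each on log axes, with 1 point per library and S100β-GFP+ libraries 14, 17 and 22 numbered. S100β-GFP+ libraries lie at marker sums of 878 to 7609 CPM and at the highest levels of both genes, and PSC and NG2-dsRed+ libraries lie together between 50.6 and 152 CPM.

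H2-K1, H2-D1 and B2m were read in every library of the 3 cell types and were lower in PSCs than in both others. B2m, the light chain (chr2:122147686-122153083, plus strand), was at 188 to 372 CPM with a median of 287 CPM in PSCs, at 841 to 988 CPM with a median of 890 CPM in S100β-GFP+ cells and at 328 to 942 CPM with a median of 615 CPM in NG2-dsRed+ cells. Its promoter stretch, printed above, carries the same pair of blocks as that of H2-Aa, and all 27 libraries held B2m at 188 CPM or more. All PSC libraries were under all S100β-GFP+ libraries, while PSC and NG2-dsRed+ libraries overlapped. In PSCs B2m was 3.10-fold lower than in S100β-GFP+ cells (95% interval 2.38 to 4.04, edgeR adjusted p = 4.21e-08) and 2.18-fold lower than in NG2-dsRed+ cells (1.70 to 2.80, adjusted p = 1.04e-05).

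H2-D1, a classical heavy chain (chr17:35262730-35267499, plus strand), was at 73.8 to 789 CPM with a median of 221 CPM in PSCs, 702 to 1429 CPM with a median of 1025 CPM in S100β-GFP+ cells and 210 to 992 CPM with a median of 637 CPM in NG2-dsRed+ cells. PSC library 18, at 789 CPM, was the one PSC library inside the range of S100β-GFP+ cells, and the next highest PSC library had 370 CPM. Its level in PSCs was 3.85-fold lower than in S100β-GFP+ cells (2.30 to 6.45, edgeR adjusted p = 0.000102) and 2.12-fold lower than in NG2-dsRed+ cells (1.30 to 3.44, adjusted p = 0.0148). The latter call was lost when the share of counts on 3 highly counted genes (Lars2, Gm23935 and Gm15564) was a term of the fit (log2 fold change -0.81, adjusted p = 0.0645).

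H2-K1, the other classical heavy chain (chr17:33996017-34000347, minus strand), was at 21.3 to 101 CPM with a median of 67.5 CPM in PSCs, 96.1 to 345 CPM with a median of 198 CPM in S100β-GFP+ cells and 35.9 to 316 CPM with a median of 134 CPM in NG2-dsRed+ cells. PSC libraries 12, 34 and 36 were the lowest, at 21.3, 23.3 and 25.0 CPM, and PSC library 20 at 101 CPM reached just above S100β-GFP+ library 11. Levels in PSCs were 3.43-fold lower than in S100β-GFP+ cells (2.12 to 5.56, edgeR adjusted p = 0.000131) and 2.37-fold lower than in NG2-dsRed+ cells (1.5 to 3.75, adjusted p = 0.00324). In GENCODE M21 transcripts 9.63% of the 50-base words of H2-K1 and 12.8% of those of H2-D1 also occur in other genes, mostly class I copies, so reads of these genes are less certain in origin than those of B2m, with 0%.

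The transporter genes did not pass the threshold in edgeR in any of the 3 comparisons, while DESeq2 called Tap1 higher in S100β-GFP+ than in NG2-dsRed+ cells (log2 fold change 0.54, adjusted p = 0.0421). Tap1 (chr17:34187553-34197225, plus strand) was at 15.6 to 42.4 CPM in PSCs, 26.6 to 42.7 CPM in S100β-GFP+ cells and 6.95 to 40.6 CPM in NG2-dsRed+ cells. Tap2 (chr17:34203527-34216321, plus strand) was at 6.57 to 35.9, 14.3 to 27.2 and 7.28 to 34.5 CPM. All ranges overlapped. In PSCs relative to S100β-GFP+ cells the fitted level of Tap1 was 1.39-fold lower (95% interval 1.03 to 1.89, edgeR adjusted p = 0.0831) and that of Tap2 1.13-fold lower (0.751 to 1.71, adjusted p = 0.655). Relative to NG2-dsRed+ cells the log2 fold change was 0.00 ± 0.22 for Tap1 (adjusted p = 1) and -0.51 ± 0.29 for Tap2 (0.15). The 95% interval for Tap1 reached 1.34-fold in either direction. Tap1 shares 212 exon bases with Psmb9, and Tap2 shares 165 and 533 with Gm20496 and Gm15821, all on the opposite strand.

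**Figure D3:**
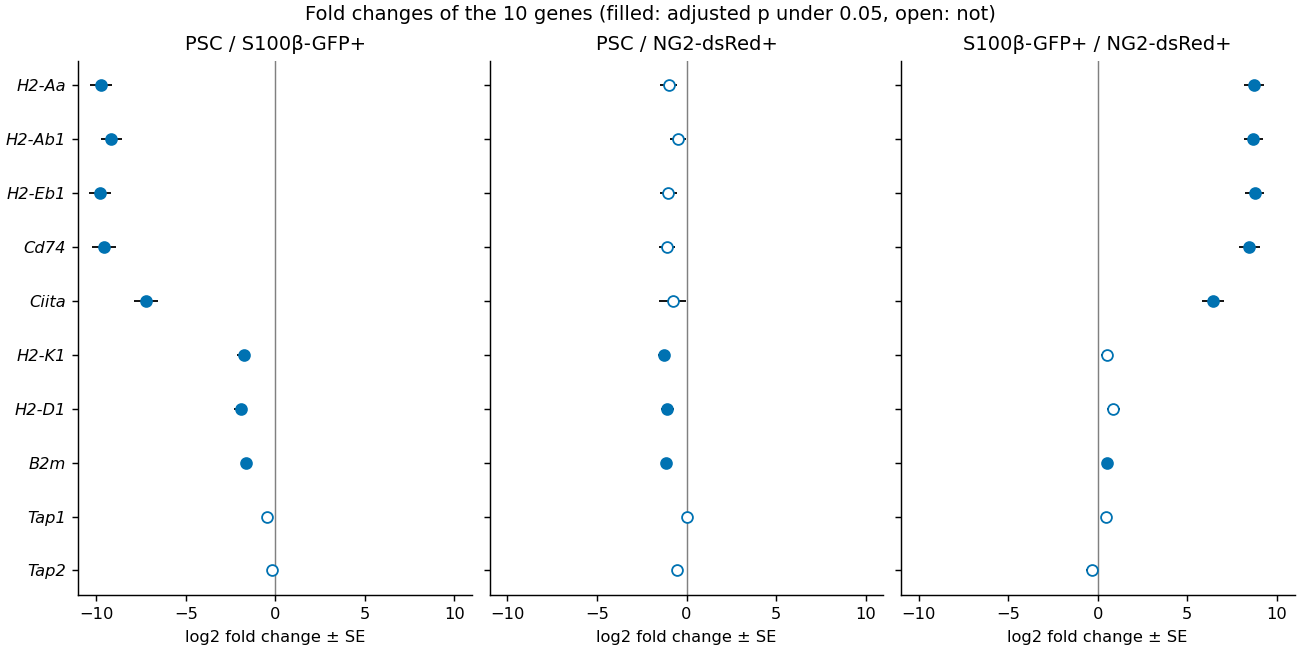
Log2 fold change ± SE of each gene in the 3 comparisons, with filled points for an edgeR adjusted p under 0.05 and open points for others. H2-Aa, H2-Ab1, H2-Eb1 and Cd74 lie at -9.79 to -9.16 in PSCs relative to S100β-GFP+ cells and at 8.47 to 8.77 in S100β-GFP+ relative to NG2-dsRed+ cells. Ciita, at -7.21 and 6.43, passed the filter on low counts through the S100β-GFP+ libraries, which built a difference into its being tested. Only H2-K1, H2-D1 and B2m are filled in PSCs relative to NG2-dsRed+ cells.

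Of the 9 genes other than Ciita, 3 were called lower and 0 higher in PSCs relative to NG2-dsRed+ cells. Of all genes tested 23.1% were called lower, 20.9% higher and 44.0% in either direction, so this count is near what genes in general showed. NG2-dsRed+ libraries also held more endothelial RNA, with marker sums of 1893 to 4470 CPM against 200 to 874 CPM in PSCs. Endothelial markers were not alone in this. Pericyte and smooth muscle markers summed to 7124 to 15610 CPM against 782 to 1403 CPM in PSCs. Fibroblast markers summed to 2236 to 19170 CPM against 703 to 2873 CPM, with overlap. Among the NG2-dsRed+ libraries H2-K1 and the endothelial sum had an r of 0.721 (n = 10, permutation p = 0.0298, adjusted p = 0.0895 over the 6 relations, rho 0.77, p = 0.0127, adjusted p = 0.0382), and without libraries 28 and 35 r was 0.511, so the relation rests on those libraries. Within PSCs r was 0.143 (n = 9, exact permutation p = 0.715, adjusted p = 0.715, rho -0.15, p = 0.708, adjusted p = 0.837), and 0.479 without libraries 18 and 31. NG2-dsRed+ libraries 28 and 35 also had the highest fibroblast sums of their cell type, at 19170 and 15120 CPM. The part of endothelial, pericyte, smooth muscle or fibroblast RNA in the lower levels of H2-K1, H2-D1 and B2m in PSCs was not tested.

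Between S100β-GFP+ and NG2-dsRed+ cells B2m was the 1 class I gene called in edgeR, and DESeq2 called 3. B2m was 1.42-fold higher in S100β-GFP+ cells (95% interval 1.10 to 1.83, edgeR adjusted p = 0.0351), a call that was lost without S100β-GFP+ libraries 14, 17 and 22 (adjusted p = 0.0684), with only these 3 of them (0.292), without a filter on low counts (0.0738), and when S100β-GFP+ library 1 or 27 or NG2-dsRed+ library 7, 9 or 13 was left out (adjusted p up to 0.0636). H2-D1 was 1.82-fold higher (1.11 to 2.97) with an adjusted p of 0.0669 in edgeR and 0.0272 by DESeq2. H2-K1 (log2 fold change 0.53, adjusted p = 0.247), Tap1 (0.48, 0.0977) and Tap2 (-0.33, 0.427) were not called in edgeR. Within the S100β-GFP+ cells libraries 14, 17 and 22 had 196, 201 and 257 CPM of H2-K1, amid 96.1 to 345 CPM in the other 5. For B2m they had 898, 882 and 841 CPM against 845 to 988 CPM and for H2-D1 1025, 1199 and 702 CPM against 760 to 1429 CPM, so that library 22 was the lowest of the 8 for both genes and the other two lay within the range.

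Per kilobase of exon, which allows a rough comparison of different genes, the order of the genes differed between the cell types. The length was that of all annotated exons of a gene together. It can exceed the length of the transcripts present, and the value of such a gene is then too low. In PSCs B2m led with 336 ± 79.2 CPM per kb (n = 9), followed by H2-D1 with 104 ± 86.6 and H2-K1 with 20.6 ± 10.5 CPM per kb. Next came Cd74 (4.98 ± 4.06), Tap1 (4.32 ± 1.48) and Tap2 (4.29 ± 2.54 CPM per kb), which were apart by less than their spread, then H2-Ab1 (1.09 ± 0.75), H2-Eb1 (0.629 ± 0.445) and H2-Aa (0.389 ± 0.297), again within their spread, and Ciita with 0.0263 ± 0.0233 CPM per kb. In S100β-GFP+ cells Cd74 led with 3769 ± 2215 CPM per kb (n = 8), followed by B2m with 1042 ± 56.1 CPM per kb. H2-Ab1 (615 ± 399), H2-Eb1 (551 ± 371), H2-D1 (400 ± 90.2) and H2-Aa (324 ± 209 CPM per kb) could not be ordered beyond their spread, and H2-K1 (70.6 ± 25.4), Tap1 (6.01 ± 0.98), Tap2 (4.85 ± 1.12) and Ciita (4.34 ± 2.67 CPM per kb) were under them. In NG2-dsRed+ cells B2m (733 ± 252), H2-D1 (220 ± 102) and H2-K1 (48.9 ± 27.6 CPM per kb, n = 10) led as in PSCs, and Cd74 was at 10.6 ± 7.60 CPM per kb.

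After subtraction of the mean of each cell type, the genes fell into their classes by how they varied from library to library. Pearson's r of log2 CPM over the 27 libraries was 0.812 to 0.865 for each pair among H2-Aa, H2-Ab1, H2-Eb1 and Cd74, a value to which S100β-GFP+ libraries 14, 17 and 22 contribute. Pairs among the 5 class I genes spread more widely, from 0.537 for H2-D1 with Tap1 to 0.853 for H2-D1 with Tap2. The value was 0.835 for H2-K1 with H2-D1, 0.849 for H2-K1 with B2m and 0.67 for Tap1 with Tap2. Between H2-Aa, H2-Ab1, H2-Eb1 or Cd74 and the 5 class I genes r lay between -0.167 and 0.423. Ciita, with few counts outside S100β-GFP+ cells, had an r of 0.255 to 0.394 with the class II chains and Cd74. These values describe libraries that share a mouse, depth and sort within each point and were not tested.

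**Figure D4:**
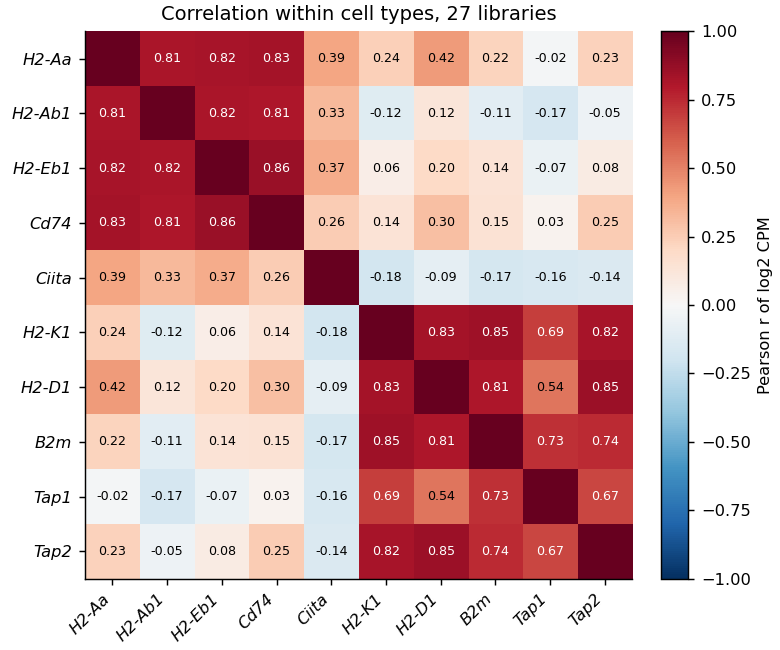
Pearson's r of log2 CPM between each pair of the 10 genes over 27 libraries, after subtraction of the mean of each cell type, on a colour scale from -1 (blue) to 1 (red). H2-Aa, H2-Ab1, H2-Eb1 and Cd74 form one block of high values. H2-K1, H2-D1, B2m, Tap1 and Tap2 form another with a wider spread, from 0.537 to 0.853.

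Among all genes tested, those most like Cd74 by this measure were H2-Eb1 (r = 0.865), H2-Aa (0.833), H2-Ab1 (0.812), Ear2 (0.812) and Crat (0.789). Those most like H2-K1 were B2m (0.849), H2-D1 (0.835), Tap2 (0.823), Ifi47 (0.79) and Ifit1 (0.789). The latter pair are interferon-induced genes.

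Genes that act around the 10 were taken from lists by role, and their counts of calls stand against the shares of all genes tested given above (in PSCs 24.1% lower and 22.9% higher relative to S100β-GFP+ cells, and 23.1% lower and 20.9% higher relative to NG2-dsRed+ cells). Of the 10 class II editing and processing genes, 6 could be tested, but H2-DMb1 and H2-DMb2 passed the filter only with the S100β-GFP+ libraries, which built a difference into their being tested. Of the other 4, PSCs had 3 lower (H2-DMa, Ctss and Ctsl) and 0 higher relative to S100β-GFP+ cells, and Lgmn was not called (-0.22, edgeR adjusted p = 0.526). The median log2 fold change of these 4 was -4.27, against 0.04 over all genes tested. H2-DMb1, a chain of the editor that loads class II molecules, was at 0.184 ± 0.380 CPM in PSCs and 99.4 ± 65.2 CPM in S100β-GFP+ cells (log2 fold change -9.16, edgeR adjusted p = 1.24e-12), and Ctss, the protease that trims the invariant chain, was at 1.53 ± 1.21 against 870 ± 757 CPM (-9.16, 3.89e-11). H2-Oa, H2-Ob, H2-Eb2 and Ifi30, named here because they were not tested, had too few counts, with H2-Eb2 at 0 counts in PSCs, where a count of 0 allows up to 3 counts over the cell type. The same 4 genes were higher in S100β-GFP+ than in NG2-dsRed+ cells (median log2 fold change 4.08), with Ctsl at 1.05 and Lgmn at 1.02. Between PSCs and NG2-dsRed+ cells 1 was higher, the lysosomal protease Lgmn (0.80, adjusted p = 0.0104), and 1 was lower, the protease Ctsl (-1.15, 1.43e-06).

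The factors Rfx5, Rfxap, Rfxank, Nfya, Nfyb, Nfyc and Creb1 together occupy the X and Y boxes of class II promoters. Of these boxes only X2 and Y were searched for and marked above. Among the 7 factors 0 were lower and 2 were higher in PSCs relative to S100β-GFP+ cells, which is near the 22.9% of all genes tested that were higher. These were Rfxank, at 11.2 ± 2.39 against 6.04 ± 1.40 CPM (log2 fold change 0.89, edgeR adjusted p = 0.0021), and Creb1, at 74.7 against 55.2 CPM (0.44, 0.028). Rfx5 was at 4.80 ± 4.14 CPM in PSCs, 5.27 ± 2.41 CPM in S100β-GFP+ cells and 4.65 ± 2.09 CPM in NG2-dsRed+ cells. The median log2 fold change of the 7 genes was 0.37 relative to S100β-GFP+ cells and 0.03 relative to NG2-dsRed+ cells, where Rfxank was again the 1 gene called, as higher (0.67, adjusted p = 0.0122). In edgeR 0 of the 7 were called between S100β-GFP+ and NG2-dsRed+ cells, with 1 at an unadjusted p under 0.05 and 0 by DESeq2.

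Costimulatory and checkpoint genes, which give T cells their second signal, could be tested for 5 of 6, of which Cd80 and Cd86 passed the filter only with the S100β-GFP+ libraries. The other 3, Cd40, Cd274 and Icosl, were lower in PSCs relative to S100β-GFP+ cells (log2 fold changes -3.61, -2.18 and -3.15, edgeR adjusted p from 7.45e-08 to 0.000427). Cd86 was at 0.208 ± 0.297 against 51.6 ± 26.6 CPM (log2 fold change -7.93, edgeR adjusted p = 2.06e-11) and Cd80 at 0.442 against 8.96 CPM (-4.28, 1.58e-06). Relative to NG2-dsRed+ cells Cd40 (-2.48, 0.000329), Cd274, which encodes the checkpoint ligand PD-L1 (-1.92, 0.00111), and Icosl (-1.39, 0.00235) were lower in PSCs, and Cd80 (1.37, 0.113) and Cd86 (-0.65, 0.524) were not called.

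Other class I genes moved with H2-K1 and H2-D1. Of 13 non-classical and further heavy chains, H2-Q10 needed the S100β-GFP+ libraries to pass the filter. Of the other 12, PSCs had 10 lower and 1 higher relative to S100β-GFP+ cells (median log2 fold change -1.62), and 9 lower and 0 higher relative to NG2-dsRed+ cells (-1.26), where 1 was higher by DESeq2. Cd1d1, which presents lipids, was at 1.55 CPM in PSCs and 18.7 CPM in S100β-GFP+ cells (log2 fold change -3.56, edgeR adjusted p = 2.17e-08), and H2-Q6 was at 2.99 against 30.5 CPM (-3.36, 0.000158). Relative to NG2-dsRed+ cells H2-Q6 (-2.12, 0.00777) and H2-T24 (-2.06, 4.63e-05) had the lowest log2 fold changes, with the reads of the near-identical H2-Q and H2-T copies uncertain in origin. Mr1, which presents vitamin B metabolites to MAIT cells, was the exception, higher in PSCs at 31.7 against 19.9 CPM (0.67, 0.0109).

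The immunoproteasome cuts the peptides that class I molecules carry. Psmb8, a catalytic subunit, was at 25.7 ± 10.2 CPM in PSCs, 85.5 ± 29.3 CPM in S100β-GFP+ cells and 66.8 ± 22.7 CPM in NG2-dsRed+ cells, and it was lower in PSCs than in both (log2 fold changes -1.74 and -1.38, edgeR adjusted p = 4.78e-07 and 1.04e-05). Psmb9 was lower by -1.01 (0.01) and -0.89 (0.0184), Psmb10 by -0.61 (0.0111) and -0.57 (0.0122), and the activator subunit Psme2 by -0.86 (2.82e-06) and -0.79 (7.11e-06). Psme1 was lower relative to NG2-dsRed+ cells only (-0.57, 0.0161), with -0.40 (0.103) relative to S100β-GFP+ cells. Between S100β-GFP+ and NG2-dsRed+ cells 0 of the 5 passed the threshold in edgeR or DESeq2 or had an unadjusted p under 0.05 in edgeR, where their median log2 fold change was 0.08 and Psmb8 was at 0.36 (0.246).

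Peptide loading showed less of a common direction in PSCs relative to the other cells. Tapbp, the tapasin that bridges transporter and heavy chain, was lower in PSCs than in both, at 68.3 against 182 and 127 CPM (log2 fold changes -1.41 and -0.90, edgeR adjusted p = 4.42e-09 and 5.71e-06), as was the trimming peptidase Erap1, at 19.2 against 38.7 and 49.9 CPM (-1.01 and -1.38, 0.0159 and 0.00101). The general chaperones Calr (0.51, 0.00959) and Pdia3 (0.64, 0.00238) were higher in PSCs than in NG2-dsRed+ cells and were not called relative to S100β-GFP+ cells. Tapbpl (-0.21 and -0.74, adjusted p = 0.628 and 0.0539) and Canx (-0.15 and 0.29, 0.412 and 0.0838) were not called in edgeR in PSCs relative to either, and by DESeq2 Tapbpl was lower (-0.70, adjusted p = 0.0468) and Canx higher (0.34, 0.0255) relative to NG2-dsRed+ cells. In S100β-GFP+ relative to NG2-dsRed+ cells 4 of the 6 genes were higher and 0 lower, against 18.1% and 15.2% of all genes tested. These were Pdia3 (0.93), Calr (0.74), Tapbp (0.51) and Canx (0.44, edgeR adjusted p from 7.32e-05 to 0.0149).

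Regulators of class I genes and the interferon response gave intermediate counts. Nlrc5, the class I counterpart of Ciita, was at 3.91 ± 2.97 CPM in PSCs, 8.11 ± 2.88 CPM in S100β-GFP+ cells and 4.14 ± 2.60 CPM in NG2-dsRed+ cells (log2 fold changes of PSCs -1.05 and -0.08, edgeR adjusted p = 0.0483 and 0.895). Irf1, an interferon-induced activator, was lower in PSCs than in both (-0.76 and -0.71, 0.00333 and 0.00422), and Irf2 (0.34 and 0.42, 0.155 and 0.0673) was not called in edgeR but was higher by DESeq2 relative to NG2-dsRed+ cells (0.47, 0.04). Ifng itself was not tested, with 0 counts over the PSC libraries, 6 over the S100β-GFP+ libraries and 1 over the NG2-dsRed+ libraries.

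Of the 10 other interferon signalling genes, PSCs had 5 lower and 1 higher relative to S100β-GFP+ cells, and 5 lower and 0 higher relative to NG2-dsRed+ cells, where 1 was higher by DESeq2. Ifngr1, a chain of the interferon gamma receptor, was at 46.9 ± 14.0 CPM in PSCs against 131 ± 27.7 and 106 ± 23.4 CPM (log2 fold changes -1.48 and -1.17, edgeR adjusted p = 4.13e-08 and 1.34e-06), and Tyk2, a receptor-bound kinase, was lower as well (-1.93 and -0.94, 4.99e-05 and 0.0242). Ifnar2, a type I interferon receptor chain, was the one that was higher in that comparison with S100β-GFP+ cells (0.37, 0.0239).

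Of 14 interferon-induced genes outside the MHC pathway, PSCs had 11 lower and 0 higher relative to S100β-GFP+ cells (median log2 fold change -1.28), and 10 lower and 0 higher relative to NG2-dsRed+ cells (-1.41). Relative to S100β-GFP+ cells the chemokine genes Cxcl9, at 1.15 against 11.4 CPM (log2 fold change -3.28, edgeR adjusted p = 0.000111), and Cxcl10, at 29.9 against 281 CPM (-3.23, 9.43e-08), had the lowest log2 fold changes. Relative to NG2-dsRed+ cells the interferon-inducible GTPase genes Gbp4, at 5.51 against 43.1 CPM (-2.96, 1.34e-05), and Iigp1, at 46.1 against 326 CPM (-2.82, 4.7e-07), had the lowest. Between S100β-GFP+ and NG2-dsRed+ cells Cxcl10 was higher in the former (3.58, 1.95e-08), while Gbp4 (-1.63, 0.00955), Iigp1 (-1.40, 0.00417) and Bst2 (-0.77, 0.0345) were lower. Where no other count stands beside a count of 0 in a direction in these lists, it was also 0 by DESeq2 and at an unadjusted p under 0.05 in edgeR.

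**Figure D5:**
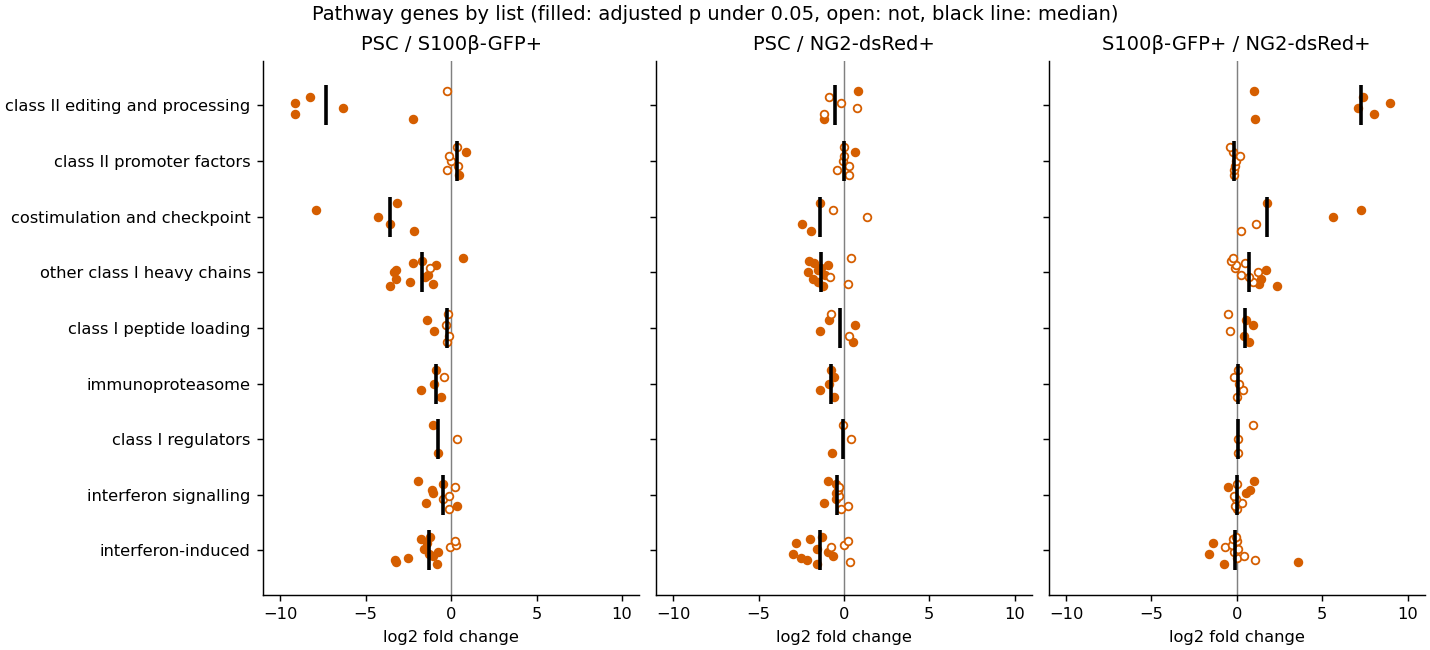
Log2 fold change of each tested gene of the 9 lists in the 3 comparisons, with filled points for an edgeR adjusted p under 0.05, open points for others and a black line at the median of the list. The class II editing genes H2-DMa and Ctss lie far from 0 in both comparisons with S100β-GFP+ cells, while Ctsl and Lgmn lie nearer to it. H2-DMb1, H2-DMb2, H2-Q10, Cd80 and Cd86 passed the filter only with the S100β-GFP+ libraries, which built a difference into their being tested. They are drawn and enter the medians, so the class II editing median is -7.30 in PSCs relative to S100β-GFP+ cells. The medians of the immunoproteasome and interferon-induced lists lie under 0 in PSCs relative to both other cell types, with Irgm1 and Igtp above 0 in both.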

How the data were processed

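RNA of FACS-sorted cells was amplified with the SMART-Seq v4 kit. Per the paper's methods and the labels' processing notes, the authors trimmed reads, aligned them with HISAT2 to GRCm38 and deposited HTSeq counts per gene. For versions, annotation, count mode and strand, the sources used here give no entry. Of 36 labelled samples, 27 had a column and the other samples were not analysed here. Columns were matched to samples by library number. All 8 S100β-GFP+ columns were used, although the study kept 1 fewer after quality control without naming the library it left out.

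Symbols and exon lengths came from GENCODE M21 (52403 of 52636 identifiers matched). All genes were fitted in edgeR 4.0.16 (R 4.3.3) with TMM factors, filterByExpr with a minimum count of 10 and the quasi-likelihood F test, on 27 libraries without covariates. Benjamini-Hochberg adjustment ran over 15330 genes and calls were made under 0.05. SE is the log2 fold change over the root of F, and CPM used effective library sizes (total counts times TMM factor). The scripts were tested on simulated data. Alternatives used DESeq2 1.42.0, limma 3.58.1, other filters, covariates and libraries, and permutation tests used scipy 1.17.1. Replicates differed by more than sampling noise (chi-square over degrees of freedom at least 8.1).

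The 10 genes, the lists and the alternatives were chosen with earlier results of these data known. In the comparisons with PSCs, named pathway genes were the 2 called genes of largest fold change per direction and list, plus any tested gene of a list of at most 7. In S100β-GFP+ relative to NG2-dsRed+ cells they were named in part only. Not named there were, among others, 3 of 12 further heavy chains and 1 of 3 costimulatory genes, all higher. Of 10 interferon signalling genes 3 were higher and 1 lower. These counts leave aside genes that needed the S100β-GFP+ libraries to pass the filter. Of all genes tested 18.1% were higher and 15.2% lower. Genes named outside this rule (markers, Bst2, the untested editing genes, H2-Ea-ps) were chosen after their values were seen.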

Additional observations from a re-analysis of the deposited data

Results flagged for a closer look

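In each cell type the highest and lowest library of each of the 10 genes were compared with the rest on log2(CPM + 1), which gave 30 groups of libraries, and by chance about 1 group in 20 would stand out. Ciita stood out in 2 of them, both at low counts. In PSCs library 36 was highest, at 0.737 CPM from 7 counts, and its gap to the next library was 0.503 of the range of the 9 libraries. In NG2-dsRed+ cells library 13 was highest, at 3.03 CPM from 17 counts, with a gap of 0.594 of the range of the 10 libraries.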

How the results depend on the processing

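No called value turned its sign, but 4 results that were not called did. The log2 fold change of Tap1 in PSCs relative to NG2-dsRed+ cells, at 0 in the results, was -0.00167 without a filter on low counts, -0.102 by limma-voom and -0.146 to 0.123 leaving out 1 library. That of Tap2 relative to S100β-GFP+ cells was 0.195 with the share of counts on 3 genes as a term and 0.0208 without S100β-GFP+ libraries 14, 17 and 22, and that of Ciita relative to NG2-dsRed+ cells was -1.08 to 0.291 leaving out 1 library, the latter without NG2-dsRed+ library 13. The correlation of H2-Aa with leukocyte markers in PSCs was -0.0152 without 2 libraries. Without a filter on low counts 16556 genes changed in PSCs relative to S100β-GFP+ cells and 10586 in S100β-GFP+ relative to NG2-dsRed+ cells, and with only S100β-GFP+ libraries 14, 17 and 22, an alternative added after seeing the data, 2484 did in the latter. The relation of H2-K1 to endothelial markers in NG2-dsRed+ cells weakened to r = 0.511 without 2 libraries. Leaving out 1 library at a time gave 6825 to 7918, 6315 to 7412 and 4617 to 5940 genes for PSCs relative to S100β-GFP+ cells, PSCs relative to NG2-dsRed+ cells and S100β-GFP+ relative to NG2-dsRed+ cells. The cause of these shifts was not tested beyond the number of genes or libraries entering each fit.

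Member calls beyond those in the results also moved. H2-D1 in S100β-GFP+ relative to NG2-dsRed+ cells was called under 6 of 8 alternatives (adjusted p from 0.00975 to 0.369) and without PSC library 12, 18, 34 or 36 or NG2-dsRed+ library 2 or 15. Tap1 in PSCs relative to S100β-GFP+ cells was called in a fit of those cell types alone (adjusted p = 0.0431) and without PSC library 23 or NG2-dsRed+ library 35. Tap2 relative to NG2-dsRed+ cells was called by limma-voom (-0.93, adjusted p = 0.00265) and without PSC library 18. Tap1 in S100β-GFP+ relative to NG2-dsRed+ cells was called by DESeq2 and without NG2-dsRed+ library 21 (adjusted p = 0.0335). H2-Aa and H2-Eb1 in PSCs relative to NG2-dsRed+ cells were called without S100β-GFP+ libraries 14, 17 and 22 (adjusted p = 0.0468 and 0.0211), with only these 3 (0.0451 and 0.0237), and without PSC library 18 for H2-Aa and 31 for H2-Eb1. Ciita could not be fitted between PSCs and NG2-dsRed+ cells alone, as it failed the filter there. No paired analysis was possible because every library carries its own number in the labels.

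At 5221655 to 9592875 counts per library a class II gene at 1 CPM rests on few reads, which limits comparisons between PSCs and NG2-dsRed+ cells. How completely reads of non-reference MHC alleles were counted was not tested.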

Other observations

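H2-Ea-ps, the alpha chain of I-E, is annotated as a pseudogene because C57BL/6 mice carry a deletion at its promoter and do not transcribe it, whereas strains such as DBA/2 do. It was the gene sixth most like Cd74 (r = 0.764 within cell types, 27 libraries). Each S100β-GFP+ library held 587 to 10996 counts of it, or 96.6 to 1596 CPM. Its count divided by that of H2-Aa varied between these libraries in another way than the class II level did, from 0.194 in library 3, 0.217 in library 27 and 0.273 in library 22, over 0.481 in library 17, 0.512 in library 14 and 0.573 in library 11, to 0.904 in library 33 and 0.928 in library 1. PSC libraries had 0 to 15 counts and NG2-dsRed+ libraries 0 to 44 counts of H2-Ea-ps.

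In the 8 S100β-GFP+ libraries the log2 ratio of H2-Ea-ps to H2-Aa was set against log2 CPM of each class I gene, a comparison chosen after seeing the data and adjusted over the 5 genes. It pools libraries 14, 17 and 22 with the others, from which they stood apart in leukocyte and endothelial markers, and no relation was tested within either set. H2-K1 was lower where the ratio was higher (Pearson's r = -0.698, exact permutation p = 0.0461, adjusted p = 0.231, Spearman's rho = -0.881, p = 0.00724, adjusted p = 0.0362), and r was -0.477 without libraries 3 and 27, so the relation rests in part on those libraries. For H2-D1 r was -0.373 (p = 0.371 by exact permutation, rho -0.524), for B2m 0.261 (p = 0.54, rho 0.31), for Tap1 0.541 (p = 0.164, rho 0.5) and for Tap2 -0.168 (p = 0.707, rho -0.286), with adjusted p of 0.36 or more. The genotype of the mice at the MHC was not given in the sources used here.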
